A study of Mus musculus with 7 samples.

Results

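The comparison described here sets 2 arrays of induced hepatic stem cells (iHepSCs) against 4 arrays of mouse embryonic fibroblasts (MEF), the cells from which they were made. These are 6 of the 7 arrays of the series, chosen by their titles. The 7th, a single array of primary hepatocytes (pHep) of 6-week-old male C57BL/6J mice, is given only as a level beside some genes. MEF were taken from C57BL/6J embryos and grown in a DMEM-based medium with serum. iHepSCs were made from MEF by lentivirus carrying Oct4 and Hnf4α under a viral promoter, moved to a hepatocyte medium with dexamethasone, HGF, EGF and nicotinamide, and picked and expanded as clones. They were sampled at passage 3 (P3, replicate 1) and at passage 20 (P20, replicate 2), with 1 array for each passage. Cell state and culture medium changed together and cannot be told apart. The study took its clone iHepSC-C3 forward for detailed work, the methods for the arrays name no clone, and both arrays may be of 1 line. No gene was chosen for this comparison. All 18193 genes with an annotated probe set were tested, and where a gene had several probe sets the brightest on average was used.

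Fibroblasts are mesenchymal cells that build and pull on a fibrous matrix of collagens, elastic fibres and matricellular proteins, and they keep the positional code of the body region they come from as a pattern of Hox gene activity. Epithelia of endodermal origin, such as those of liver, stomach, intestine and yolk sac, are instead polarised sheets that are sealed by junctions, rest on keratin filaments and secrete from an apical face. Hnf4α is a nuclear receptor that acts in several of these endodermal epithelia, and Oct4 (Pou5f1) is known for its role in pluripotent cells.

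The values are log2 expression levels, on which a difference of 1 is a 2-fold change. They run from about 3, the lowest values of the arrays, to about 15. Array medians lay between 6.28 and 6.33. MEF replicates 2, 3 and 4 correlated at 0.997 with each other over all probe sets and at 0.960 to 0.961 with MEF replicate 1, and the 2 iHepSC arrays correlated at 0.996. Nothing in the sources used here says that replicates were separate cultures, and p-values measure only the spread between these arrays. RNA of whole cultures was measured, so that fewer cells of a kind and less RNA per cell cannot be told apart. The 10 fibroblast markers had array medians of 12.44 to 13.53 in MEF, 6.08 and 6.22 in iHepSCs and 8.69 on the pHep array. All 10 fell, 8 of them by at least 1 on the log2 scale. Vim (-0.52) and Dcn (-0.93) fell by less, and another probe set of Dcn had a difference of 0.10. Of 14 hepatocyte markers 7 rose, led by Alb, while Tat, Pck1, Cyp2e1, Cyp3a11, Tdo2, Hpd and Ass1 did not pass the test. The median of this list was 4.94 to 5.31 in MEF, 5.49 and 5.78 in iHepSCs and 10.95 on the pHep array. Among markers of hepatic progenitors, Alb, Afp, Ttr, Cdh1, Krt8, Krt18, Krt19 and Hnf4a rose. Epcam (-0.15) and Prom1 (-1.07) did not pass the test on the probe sets used. The other probe set of Epcam went the opposite way and was higher in iHepSCs by over 4, so the 2 disagree on this gene. The Pou5f1 probe set used was at 5.01, 5.26, 4.99 and 5.0 in MEF and 5.04 and 5.20 in iHepSCs, which did not pass the test (adjusted p = 0.768). Hnf4a was at 7.39 to 7.51 in MEF and at 12.07 and 11.88 in iHepSCs. Of its 3 other probe sets, 2 were also higher, by 6.88 and 2.20, and 1 did not pass the test (0.13). Whether the arrays read the vector's transcripts was not tested.

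Of the 18193 genes, 3310 (18.2%) were higher and 2446 (13.4%) lower in iHepSCs than in MEF at an adjusted p under 0.05 (limma, Benjamini-Hochberg over all genes). These shares are the background against which the counts of the gene groups below in this main fit are to be read. They do not hold for counts given without an array or with arrays centred on Gapdh. Such counts are to be read against the counts over all genes in the same fit, and several of these close this paragraph. Counts given below by the methods' test are not the study's own array results. The study names this unpaired test for its data in general, and its array methods name none. The test was run here, and its p-values were adjusted by Benjamini-Hochberg. On every called gene, both iHepSC arrays lay beyond all 4 MEF arrays. The calls were made on these same values, so this is no separate support for them, and the share of all genes without overlap was not counted. The median change was 1.21 among genes called higher and -1.14 among genes called lower. By at least 2 on the log2 scale 866 genes rose and 669 fell, by at least 4 the counts were 234 and 212, and by at least 6 they were 70 and 63. Of 2048 genes with a MEF mean over 11, 29.8% fell and 10.9% rose. From 8 to 11, 19.2% of 6029 genes fell and 23.3% rose, and from 5 to 8, 8.92% of 7242 fell and 19.1% rose. Under 5, 1.18% of 2874 genes fell and 10.4% rose. These groups were made on the MEF mean, which is itself part of the comparison. Genes near an end of the scale had little room to move further towards it, so these shares do not compare loss with gain. With each array centred on Gapdh, which shifts the median of all genes to 0.397, 4732 genes were higher and 1252 lower. Without MEF replicate 1 the counts were 5638 and 4514, without iHepSC replicate 1 they were 1973 and 1375, and without iHepSC replicate 2 they were 1833 and 1299. The plot of mean levels shows the genes that left the diagonal at both ends of the range.

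**Figure D1:**
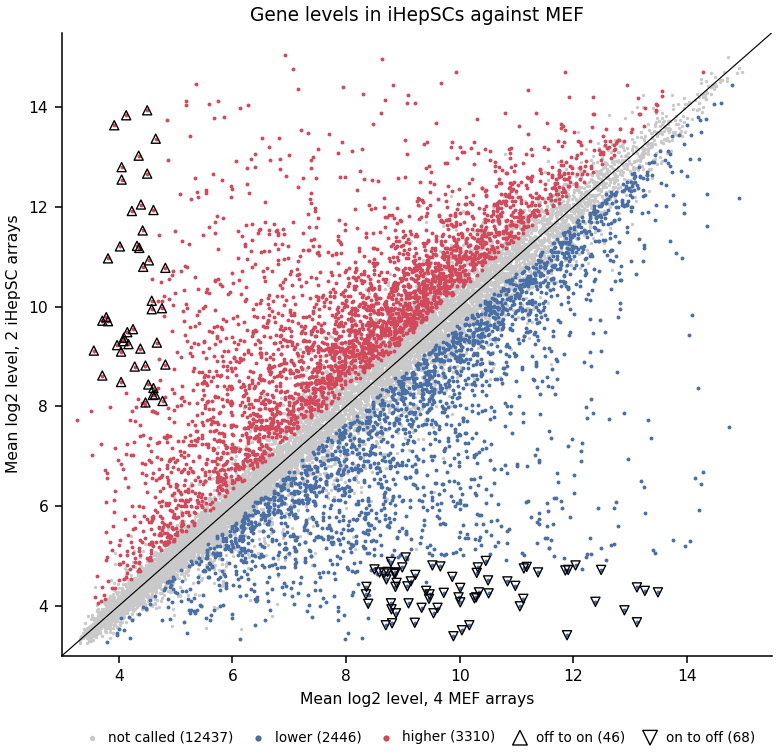
Each point is 1 of 18193 genes, with the mean log2 level of the 4 MEF arrays on the x axis and of the 2 iHepSC arrays on the y axis. Genes called higher (3310) lie above the diagonal and genes called lower (2446) below it. Open triangles mark the 46 genes that went from under 5 to over 8 on all arrays and the 68 that went the opposite way.

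Genes of the matrix and of the contractile apparatus of the fibroblast were lost in large numbers. Of 47 matricellular and elastic fibre genes, 38 fell and 1 rose, with a median difference of -3.27, against 0.009 over all genes. Thbs1, which encodes thrombospondin, was at 14.29, 13.82, 13.83 and 13.92 on the MEF arrays and at 5.15 and 5.26 on the iHepSC arrays, a fall by 8.76 (standard error 0.16, adjusted p = 8.55e-07, limma). Fstl1, a secreted follistatin-like glycoprotein that the list of TGF-β and BMP genes holds, was at 13.91, 13.32, 13.34 and 13.37 in MEF and at 4.12 and 4.42 in iHepSCs. Both genes were among the most abundant in MEF, and in iHepSCs Fstl1 came close to the lowest values of the arrays. The member that rose was Tnxb, a tenascin, from 5.58 ± 0.16 (SD, n = 4) to 9.51 ± 0.03 (SD, n = 2). Of 42 collagens 17 fell, and 0 rose in the limma fit, at an unadjusted p under 0.05 and by the methods' t-test (1 rose without MEF replicate 1).

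Of 44 contractile and stress fibre genes, 32 fell and 2 rose (1 to 4 rose when an array was left out, 4 without MEF replicate 1 and 1 without any other). Myl9, a regulatory light chain of nonmuscle and smooth muscle myosin, was at 14.06, 13.63, 13.66 and 13.64 in MEF and at 5.26 and 5.4 in iHepSCs. Tagln, which encodes an actin-binding protein of smooth muscle and fibroblasts, was at 14.53, 14.21, 14.17 and 14.11 in MEF and at 6.42 and 6.46 in iHepSCs. The pHep array held intermediate levels of both, 10.64 and 9.82. Of 8 caveolar genes 7 fell and 1, Cav2, rose (1.53, called neither without iHepSC replicate 1 nor without iHepSC replicate 2). Cavin3, a coat protein of caveolae, fell by 5.55 (standard error 0.11) to 4.78 and 4.77, whereas Cav1, their main membrane protein, fell by 2.08 (standard error 0.12) and was still at 12.02 and 11.72. Of 59 genes for heparan and chondroitin sulphate and hyaluronan, 26 fell and 6 rose. The lower count was 17 without iHepSC replicate 2, and the higher count was 10 without MEF replicate 1. With arrays centred on Gapdh 18 fell and 6 rose, and the median turned from -0.27 to 0.11. Has2, a hyaluronan synthase, fell by 5.91 (standard error 0.34). Of 42 metalloproteinases and their inhibitors 16 fell and 5 rose (9 without MEF replicate 1). The collagenase Mmp13 was among those that rose, from 6.46 ± 0.46 (SD, n = 4) to 11.54 ± 0.38 (SD, n = 2).

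**Figure D2:**
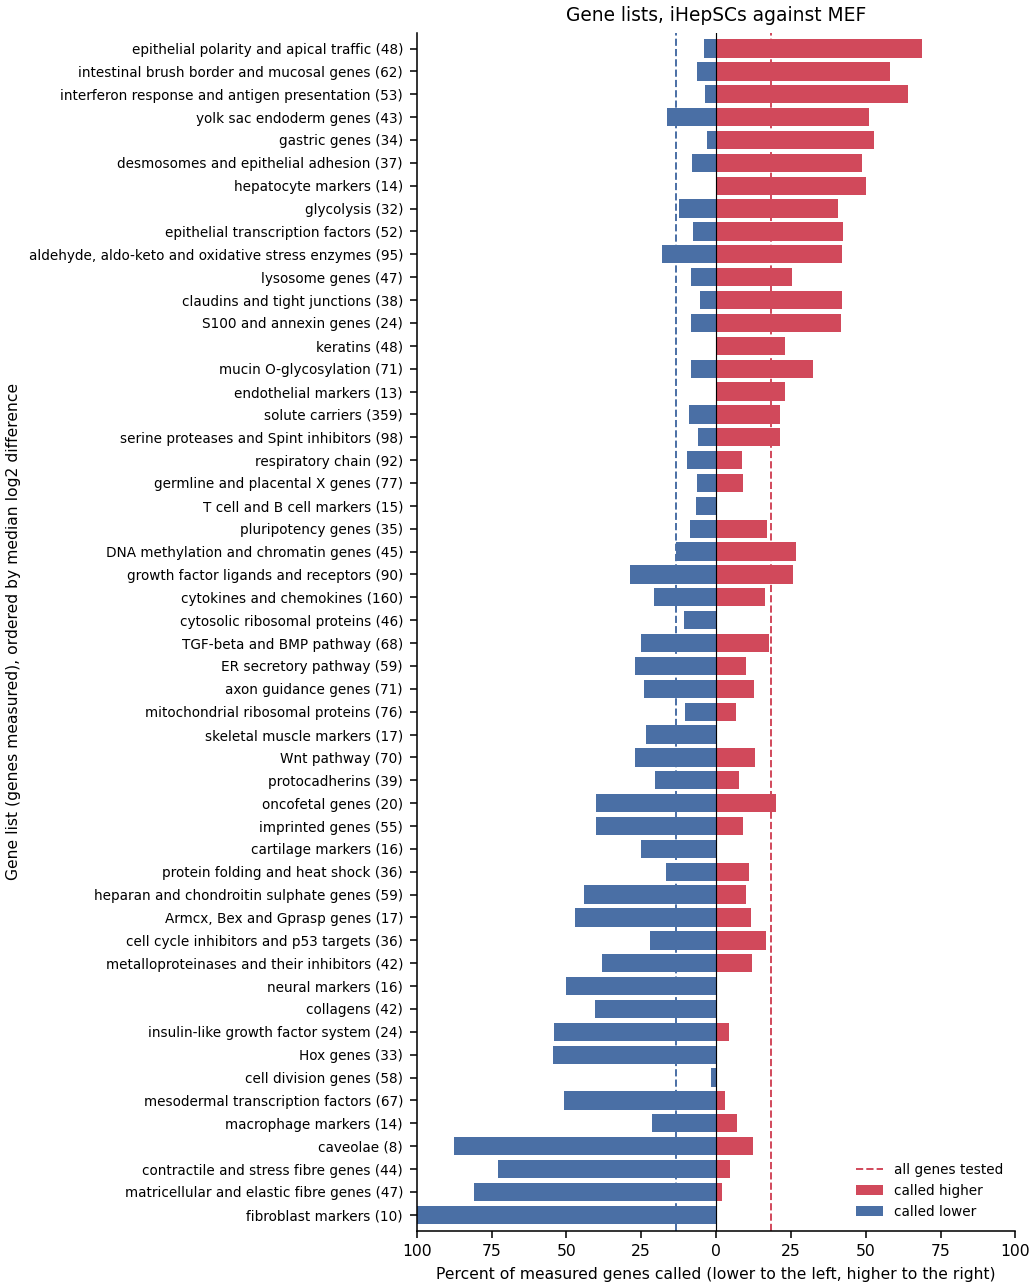
Bars give the percent of measured genes of each of 52 gene lists that were called lower (left) and higher (right) in iHepSCs than in MEF. The dashed lines mark the shares over all genes tested, 13.4% lower and 18.2% higher, and the lists are ordered by their median log2 difference. Epithelial polarity and apical traffic stands at the top and fibroblast markers at the bottom; with arrays centred on Gapdh every difference is 0.39 higher and the medians of 18 of the 52 lists change sign.

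Positional and mesodermal regulators fell with the matrix. Of 67 mesodermal transcription factors, 34 fell and 2 rose. The higher count was 6 without MEF replicate 1, 0 without iHepSC replicate 1 and 1 without iHepSC replicate 2. Prrx1, a homeobox factor of limb and craniofacial mesenchyme, was at 12.89, 12.16, 12.11 and 12.10 in MEF and at 5.11 and 4.95 in iHepSCs. Of 33 Hox genes 18 fell (10 without either iHepSC replicate), and 0 rose in the limma fit, at an unadjusted p under 0.05 and by the methods' t-test (1 rose without MEF replicate 1). Hoxc8, which marks trunk position, was at 9.59, 10.20, 10.13 and 10.11 in MEF and at 4.17 and 3.97 in iHepSCs, and it was at 3.96 on the pHep array. The members Hoxc4, Hoxc5, Hoxc6, Hoxc8, Hoxc9 and Hoxc10 formed an unbroken run of 6 neighbouring measured genes on chromosome 15 that were called lower, with a median difference of -1.99. Hoxc5 lost its call without any single array other than MEF replicates 1 and 4, and Hoxc6 and Hoxc9 lost theirs without either iHepSC replicate. On the whole of chromosome 15, 28.6% of genes rose. Of 16 neural markers 8 fell, among them Gap43, a growth cone protein, by 4.6 (standard error 0.15), and 0 rose in the limma fit, at an unadjusted p under 0.05 and by the methods' t-test.

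Some of the largest falls were in signals that fibroblasts send to their neighbours. Ptgs2, the inducible enzyme of prostaglandin synthesis, was at 13.16, 13.02, 13.11 and 13.19 in MEF and at 3.60 and 3.74 in iHepSCs, the largest fall of all genes tested (-9.45, standard error 0.10, adjusted p = 4.04e-07, limma). Cdh11, the cadherin of mesenchymal contacts, was at 13.68, 13.08, 13.09 and 13.18 in MEF and at 4.38 and 4.23 in iHepSCs. Neither gene was high on the pHep array, at 4.18 and 4.30. Wnt5a, a ligand of noncanonical Wnt signalling, was at 11.45, 10.94, 10.85 and 11 in MEF and at 4.01 and 3.96 in iHepSCs. The chemokine Cxcl12 fell by 7.19 (standard error 0.40) and the cytokine Il6 fell by 5.32 (standard error 0.21), and both iHepSC arrays held them under 5. Counts over whole pathways were more even. Of 70 Wnt pathway genes 19 fell and 9 rose (12 fell without iHepSC replicate 2, and 14 rose without MEF replicate 1). Of 68 TGF-β and BMP pathway genes 17 fell and 12 rose (29 fell without MEF replicate 1, and 7 rose without either iHepSC replicate). Of 90 growth factor ligands and receptors 26 fell and 23 rose (13 and 14 rose without iHepSC replicate 1 and 2). With arrays centred on Gapdh the counts that fell and rose were 12 and 13 for the Wnt list, 11 and 16 for the TGF-β and BMP list and 22 and 24 for the growth factors, and all 3 medians turned from below 0 to above it. Ligands that rose were Bmp2, from 5.68 ± 0.49 (SD, n = 4) to 9.60 ± 0.22 (SD, n = 2), and Fgf1, from 5.34 ± 0.16 (SD, n = 4) to 9.61 ± 0.56 (SD, n = 2). Of 160 cytokine and chemokine genes 33 fell and 26 rose (20 and 33 with arrays centred on Gapdh). Without iHepSC replicate 1 the counts were 16 and 14, without iHepSC replicate 2 they were 15 and 16, without MEF replicate 2 or 4 they were 21 and 17, and without MEF replicate 3 they were 24 and 16. The mucosal chemokine Cxcl17 rose by 5.77 (standard error 0.10) to 13.50 and 13.44.

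Genes that promote or restrain fetal growth were prominent among the losses. Imprinted genes are expressed from the allele of 1 parent, and many of them act on the growth of the fetus. Of 55 measured, 22 fell and 5 rose (11 rose without MEF replicate 1), with a median difference of -0.24. With arrays centred on Gapdh 19 fell and 11 rose, and the median was 0.15. Grb10, an adaptor that restrains insulin and IGF receptor signalling, was at 13.39, 13.39, 13.42 and 13.43 in MEF and at 4.73 and 5.53 in iHepSCs. Igf2, a fetal growth factor, was at 13.50, 13.35, 13.33 and 13.25 in MEF and at 7.10 and 7.64 in iHepSCs. Plagl1, a zinc finger factor, was at 11.76, 11.81, 11.90 and 11.88 in MEF and at 4.82 and 5.10 in iHepSCs. For these 3 genes the MEF arrays lay within 0.25 of each other, and the pHep array stood between the groups, at 10.39, 9.42 and 8.33. These levels are of the probe sets used, and other probe sets changed by less. Their differences were -3.99 (not called) and -3.52 for Grb10, -2.38 for Igf2, and -1.43 and 0.22 (not called) for Plagl1. Slc38a4, an imprinted amino acid transporter, was at 8.77, 10.75, 10.75 and 10.76 in MEF, at 4.31 and 3.99 in iHepSCs and at 10.73 on the pHep array. In the IGF system as a whole, 13 of 24 genes fell and 1 rose (5 rose without MEF replicate 1, and 0 without iHepSC replicate 2).

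Large falls also touched single genes of housekeeping or detoxifying function. Gusb, the lysosomal β-glucuronidase, was at 10.79, 10.24, 10.17 and 10.17 in MEF, at 4.35 and 4.20 in iHepSCs and at 10.53 on the pHep array. Over all 47 lysosome genes, Gusb included, 12 rose and 4 fell (31 rose without MEF replicate 1, and 6 and 5 rose without iHepSC replicate 1 and 2), and Ctsh, a cathepsin, rose by 4.00 (standard error 0.10) to 13.04 and 13.10. Mbd1, which binds methylated CpG, was at 9.61, 8.96, 8.92 and 8.81 in MEF, at 4.39 and 4.40 in iHepSCs and at 10.56 on the pHep array. Its other probe sets fell by less, with differences of -3.73, -0.81 (not called), -0.72 and -0.79. Armcx2, of an X-linked family of armadillo repeat proteins, was at 12.59, 12.97, 13.01 and 13.02 in MEF and at 3.93 and 3.89 in iHepSCs. Its family neighbour Bex1 fell by 5.55 (standard error 0.36), while Bex2 rose by 3.39 (standard error 0.32). Of 17 Armcx, Bex and Gprasp genes 8 fell and 2 rose (5 and 2 with arrays centred on Gapdh, which turned the median from -0.28 to 0.11). Nqo1, a quinone reductase, fell by 5.34 (standard error 0.12) to 5.45 and 5.55. The plot of levels by array shows these losses beside the gains described next.

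**Figure D3:**
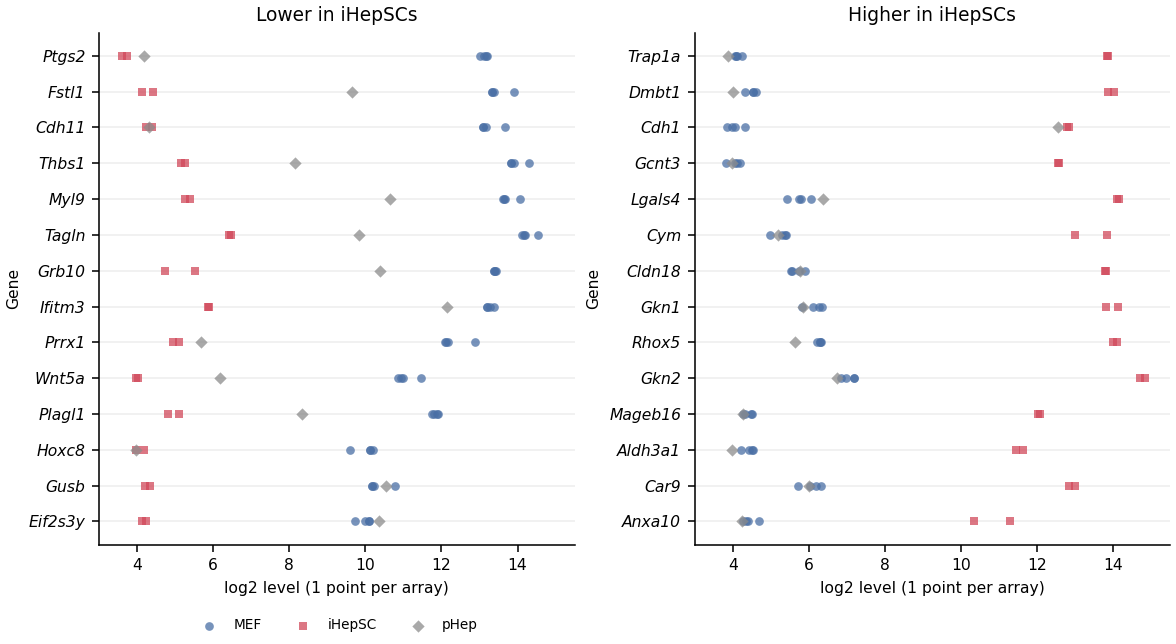
Each point is the log2 level of 1 gene on 1 array, with 4 MEF arrays, 2 iHepSC arrays and 1 pHep array per gene. In all 28 genes the iHepSC arrays lie apart from the MEF arrays, and the pHep array lies near MEF for most genes of the right panel, with Cdh1 (12.54) an exception. The genes were picked by hand and not by rank, so the panel does not stand for all large rises. Large rises that were also high on the pHep array, such as Sult1d1 (11.38) and Bst1 (9.64), are not shown.

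On the side of the gains stood many genes that make a polarised epithelium. Of 48 genes of epithelial polarity and apical traffic 33 rose and 2 fell, with a median difference of 1.33. When arrays were left out singly, 5 fell without MEF replicate 1, and 1 fell without MEF replicate 4 and without iHepSC replicate 1. Mal2, a protein of transcytosis to the apical face, was at 3.85, 3.64, 3.82 and 3.93 in MEF, at 11.10 and 10.84 in iHepSCs and at 10.05 on the pHep array. Of 37 genes of desmosomes and epithelial adhesion 18 rose and 3 fell (5 fell without MEF replicate 1), of 38 claudins and tight junction genes 16 rose and 2 fell (4 fell without MEF replicate 1; of 21 claudins alone 3 rose), and of 52 epithelial transcription factors 22 rose and 4 fell (2 fell without iHepSC replicate 2). Ehf, an ETS factor of simple epithelia, was at 3.80, 3.93, 3.74 and 3.76 in MEF and at 9.75 and 9.67 in iHepSCs, and it was at 5.24 on the pHep array. Among 48 keratins 11 rose (22.9%, near the share over all genes, and 18 without MEF replicate 1), and 0 fell in the limma fit and by the methods' t-test, 1 at an unadjusted p under 0.05 and 2 without MEF replicate 1. Krt8, a keratin of simple epithelia, was at 6.92, 8.82, 8.69 and 8.75 in MEF and at 14.35 and 14.17 in iHepSCs, and Krt7, a keratin of ducts, was at 5.77, 7.82, 7.86 and 7.86 in MEF and at 13.43 and 13.52 in iHepSCs. MEF replicate 1 was the lowest MEF array for both keratins.

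Beyond liver genes, iHepSCs held high levels of genes known from the stomach and the intestine. Of 34 gastric genes 18 rose and 1 fell (3 fell without MEF replicate 1), with a median difference of 0.8. Of the 18 that rose, 2 were over 8 on the pHep array. The share over 8 on that array was counted neither for all genes nor for all genes that rose, so this count has no background. Gkn1 and Gkn2 encode gastrokines, which surface mucous cells of the stomach secrete. Gkn1 was at 6.28, 5.83, 6.35 and 6.11 in MEF, at 14.14 and 13.82 in iHepSCs and at 5.86 on the pHep array. Gkn2 was at 6.84, 7.20, 6.99 and 7.20 in MEF, at 14.83 and 14.71 in iHepSCs and at 6.74 on the pHep array. Both gastrokines were thus near the top of the scale in iHepSCs alone among the 3 kinds of sample. Cldn18, a claudin of stomach and lung, was at 5.53, 5.55, 5.89 and 5.73 in MEF, at 13.80 and 13.79 in iHepSCs and at 5.78 on the pHep array. Cym, the milk-clotting protease chymosin, was at 5.38, 4.99, 5.29 and 5.39 in MEF, at 13.01 and 13.84 in iHepSCs and at 5.19 on the pHep array. Among the 15 members that did not pass the test were the proton pump subunits Atp4a (0.49, called higher without MEF replicate 1) and Atp4b (-0.02), the pepsinogen gene Pgc (-0.14), the surface mucin Muc5ac (-0.05) and the hormones Gast (0.13) and Ghrl (-0.02), while Lipf, the gastric lipase, rose by 4.35.

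Of 62 intestinal brush border and mucosal genes 36 rose and 4 fell (2 fell without either iHepSC replicate), with a median difference of 1.19. Of the 36 that rose, 10 were over 8 on the pHep array, again with no background counted. Dmbt1, a secreted scavenger protein of mucosal surfaces, was at 4.54, 4.62, 4.31 and 4.54 in MEF, at 13.86 and 14.02 in iHepSCs and at 4.00 on the pHep array. Lgals4, a galectin of the gut lining, was at 5.42, 5.73, 6.05 and 5.79 in MEF, at 14.10 and 14.16 in iHepSCs and at 6.36 on the pHep array. Vil1, the villin of microvilli, rose by 5.43, and Pigr, which carries immunoglobulins across epithelia, by 5.67. Members that did not pass the test included the goblet cell mucin Muc2 (0.24), lactase (Lct, -0.04) and the glucose transporter Slc5a1 (0.17). Of 71 genes of mucin O-glycosylation 23 rose and 6 fell (11 fell without MEF replicate 1, and 3 without either iHepSC replicate). Gcnt3, a branching enzyme of mucin glycans, was at 3.82, 4.07, 4.1 and 4.20 in MEF, at 12.54 and 12.57 in iHepSCs and at 3.98 on the pHep array.

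Extraembryonic and germline genes gave a small number of very large rises. Of 43 genes of yolk sac endoderm, an epithelium that shares many secreted proteins with the liver, 22 rose and 7 fell (12 fell without MEF replicate 1, and 4 and 3 without iHepSC replicate 1 and 2). Several of its members are also liver genes. Among the regulators, Sox17 rose by 3.54, Gata6 by 4.53 and Gata4 by 1.26, while Sox7 (0.01) did not pass the test. Of 77 germline and placental genes, many of them X-linked, 7 rose and 5 fell, shares below those over all genes. The higher count was 12 without MEF replicate 1. The lower count was 8 without MEF replicate 1, 2 without iHepSC replicate 2 and 3 without any other array. Of these 7, 3 were among the 25 largest rises of all genes. Trap1a, which encodes the tumour rejection antigen P1A, was at 4.24, 4.08, 4.06 and 4.11 in MEF, at 13.83 and 13.86 in iHepSCs and at 3.87 on the pHep array. Rhox5, a homeobox gene of placenta and the male reproductive tract, was at 6.21, 6.31, 6.29 and 6.29 in MEF, at 14.09 and 14 in iHepSCs and at 5.64 on the pHep array. Mageb16 was at 4.33, 4.51, 4.26 and 4.47 in MEF, at 12.09 and 12.02 in iHepSCs and at 4.27 on the pHep array. Their family members Rhox6 (0.12) and Rhox9 (-0.03) did not pass the test, and the germ cell helicase Ddx4 fell by 4.65 (standard error 0.38). Ms4a4b, a membrane protein of the CD20 family known from T cells, was at 4.04, 3.89, 3.85 and 3.88 in MEF and at 13.59 and 13.68 in iHepSCs, but its other probe set had a difference of 0.36 and did not pass the test. Of 15 T cell and B cell markers, 0 rose in the limma fit and by the methods' t-test, 1 at an unadjusted p under 0.05 and 1 without MEF replicate 1.

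Of 35 pluripotency genes 6 rose and 3 fell, shares close to or below those over all genes. The lower count was 6 without MEF replicate 1, 0 without iHepSC replicate 1 and 1 without iHepSC replicate 2, and with arrays centred on Gapdh 7 rose and 0 fell. Tfcp2l1, a factor of naive pluripotency that is also made in epithelia, rose by 5.02 (standard error 0.35) on the probe set used, while its other probe sets did not pass the test. Fbxo15 rose from 4.11 ± 0.10 (SD, n = 4) to 5.75 ± 0.45 (SD, n = 2). Nanog lay near the lowest values throughout, at 4.35 to 4.56 in MEF and at 4.00 and 3.89 in iHepSCs, and its call was lost without either iHepSC replicate or with arrays centred on Gapdh. Dppa2, Dppa3, Dppa4 and Dppa5a did not pass the test, with differences between -0.15 and -0.03.

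Interferon-response and antigen-presentation genes rose in large numbers. Of 53 measured, 34 rose, 26 of them by at least 1 on the log2 scale, and 2 fell, with a median difference of 1.12 (22 rose without iHepSC replicate 1, and 4 fell without MEF replicate 1). Isg20, an antiviral exonuclease, was at 7.37, 7.30, 7.39 and 6.94 in MEF and at 11.53 and 10.74 in iHepSCs. Mx1, an antiviral GTPase, was at 4.37, 4.28, 4.36 and 4.33 in MEF, at 8.56 and 7.73 in iHepSCs and at 4.08 on the pHep array. P20 was the lower iHepSC array for both. The median of the list was 8.86 at P3 and 8.18 at P20, against 7.17 to 7.39 on the MEF arrays. The class I gene H2-D1 rose by 3.15, but near-identical class I genes can share probes, and without probe sets of suffix _x_at or _s_at its difference was 0.09. The class II genes H2-Aa (0.08), H2-Ab1 (-0.08) and H2-Eb1 (-0.17) did not pass the test. Against the direction of the list, Ifitm3, a membrane protein that blocks virus entry, fell from 13.37, 13.20, 13.27 and 13.20 in MEF to 5.85 and 5.89 in iHepSCs. Of 11 measured genes of the Parp family 7 rose, with Parp9 and Parp14, which belong to the interferon list, among them. A run of 6 neighbouring genes on chromosome 3 that all rose held Gbp2, Gbp2b, Gbp3 and Gbp7, guanylate-binding proteins of the interferon response. Gbp2 and Gbp2b lost their calls with MEF replicates 2 to 4 averaged, and these 2 and Gbp3 lost them with MEF replicate 1 as the only MEF array.

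Metabolic genes moved in part. Of 95 aldehyde, aldo-keto and oxidative stress enzymes 40 rose and 17 fell (9 and 10 fell without iHepSC replicate 1 and 2). Aldh3a1, an aldehyde dehydrogenase of cornea and stomach, was at 4.23, 4.5, 4.52 and 4.44 in MEF, at 11.62 and 11.45 in iHepSCs and at 3.97 on the pHep array. Of 32 genes of the glycolysis list, which also holds hypoxia-response genes, 13 rose and 4 fell (8 fell without MEF replicate 1, and 2 without iHepSC replicate 2). Car9, a carbonic anhydrase that hypoxia induces and that gastric epithelium also makes, was at 6.03, 5.72, 6.19 and 6.33 in MEF, at 13 and 12.83 in iHepSCs and at 6.01 on the pHep array. Ndrg1, which hypoxia and differentiation induce, rose by 5.44 (standard error 0.15) to 14.24 and 14.03. Of 46 cytosolic ribosomal protein genes 5 fell, and 0 rose in the limma fit, at an unadjusted p under 0.05 and by the methods' t-test. The lower count was 12 without MEF replicate 1, when 2 rose, and 2 to 3 without any other array. Of 92 respiratory chain genes 8 rose and 9 fell, and without MEF replicate 1 the counts were 30 and 17. Leaving out another array gave 2 to 4 that rose, and without iHepSC replicate 1 and 2 the lower counts were 5 and 4. With arrays centred on Gapdh 15 respiratory chain genes rose and 2 fell, and 1 cytosolic ribosomal protein gene rose and 3 fell.

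For cell division genes the answer depended on which fibroblast array was used. Of 58 measured, 1 fell (Ccne1, cyclin E, by 1.58), and 0 rose in the limma fit, at an unadjusted p under 0.05 and by the methods' t-test. The median difference was -0.98. Without MEF replicate 1, 54 fell. The array medians were 7.70 on MEF replicate 1 and 10.83, 10.69 and 10.71 on the other MEF arrays, with 9.2 at P3, 8.36 at P20 and 7.54 on the pHep array. Both iHepSC arrays thus lay between MEF replicate 1 and the other MEF arrays.

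**Figure D4:**
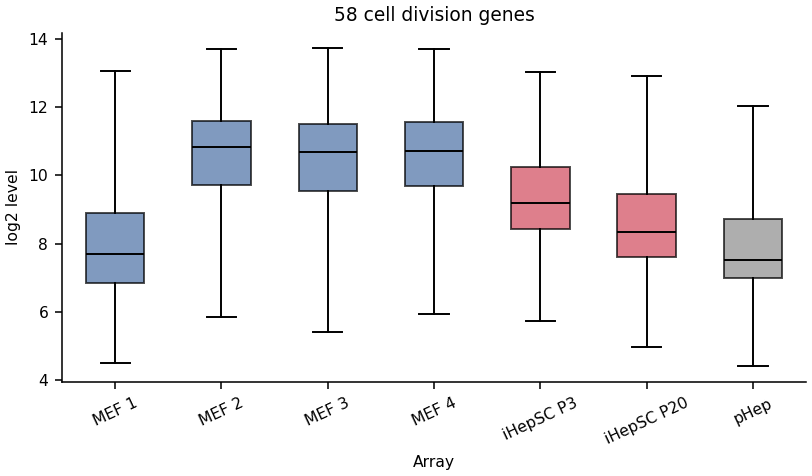
Log2 levels of 58 cell division genes on each array (box, quartiles with the median as a line; whiskers, lowest and highest gene). The median was 7.70 on MEF replicate 1, 10.69 to 10.83 on the other MEF arrays and 9.2 and 8.36 on the iHepSC arrays.

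Markers of other cell types were examined for cells that a culture could hold. Of 14 macrophage markers 1 rose and 3 fell. Cd14, a co-receptor for lipopolysaccharide that epithelial cells can also make, was the one that rose, by 4.15 (standard error 0.21). Without MEF replicate 1, 9 fell, and without either iHepSC replicate 1 fell. The array medians of this list were 6.60 to 8.25 in MEF, with replicate 1 the highest of these, and 5.83 and 5.87 in iHepSCs. On the pHep array the median was 10.09. Whether the levels given for the pHep array come from hepatocytes alone was not tested. Of 13 endothelial markers 3 rose, Cdh5 (3.10), Vwf (2.59) and Tek (2.20), and 0 fell in the limma fit and by the methods' t-test, 2 at an unadjusted p under 0.05 and 2 without MEF replicate 1, when 5 rose. The endothelial genes Pecam1 (0.07), Kdr (-0.65, called lower without MEF replicate 1), Tie1 (0.11) and Erg (-0.10) did not pass the test. The part of other cells in these results was not tested.

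Genes that switched between the ends of the scale were picked by level alone, under 5 in one group and over 8 in the other on every array. They were selected on the values compared, so that no test was made. From off in MEF to on in iHepSCs there were 46 genes, and from on to off 68. On the single pHep array 25 of the 46 genes switched on were also under 5, 15 were over 8 and 6 lay between. The shares of all genes at these pHep levels were not counted, so these counts and those below have no background. Those under 5 on pHep included Dmbt1, Gcnt3, Trap1a, Mageb16, Aldh3a1, the gastric lipase Lipf (4.38), the intestinal fatty acid binding protein Fabp2 (4.09), the goblet cell protein Clca1 (4.05) and Anxa10, an annexin of gastric mucosa, which was at 4.27, 4.36, 4.70 and 4.40 in MEF and at 11.28 and 10.33 in iHepSCs. Those over 8 on pHep included Cdh1 (12.54), Lcn2 (14.59), Sult1d1 (11.38), Fabp1 (10.57) and S100g (9.87). Among the 68 genes switched off, 33 were also under 5 on pHep, 17 were over 8 and 18 lay between. The 17 included Bex1 (14.28), Nid1 (12.07), Slc38a4, Gusb and Mbd1. All levels are those of the probe set used for each gene, and other probe sets of Mbd1 fell by less. A gene just outside the limits was Rhox5, with MEF levels over 6.

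Promoter sequences were set beside these groups, from RefSeq (GRCm38.p6), as the 300 bases from 250 before to 50 after each annotated start. A promoter was found for 14368 genes, 18009 promoters in all. The motif TATAAA, read on both strands, stood in 9.76% of all promoters, in 38.5% of those of genes switched on (15 of 39 promoters, from 32 genes), in 15.1% of those of genes switched off (8 of 53), in 21.1% of those that rose by at least 4 and in 16% of those that fell by at least 4. The AP-1 motif TGANTCA stood in 6.35% of all promoters, 20.5% of those switched on (8 of 39) and 7.55% of those switched off (4 of 53). CpG was sparse in the genes switched on, with a median of 4 per promoter against 16 over all and 11 in the genes switched off. Genes switched on were picked as under 5 on all MEF arrays, and promoters of all genes that low in MEF were not counted apart. These motif shares and CpG medians therefore have no background of like level. The CArG box, which serum response factor binds, stood in 1.36% of all promoters, in 4.28% of those that fell by at least 4 (8 of 187), in 2.39% of those that rose by at least 4 (5 of 209) and in 0 of 53 and 0 of 39 promoters of genes switched off and on. The HNF4 motif CAAAGTCCA stood in 0.494% of all promoters, 0.72% of those of genes called higher (24 of 3332) and 0.231% of those of genes called lower (6 of 2598), and by at least 4 in 0.957% of those that rose (2 of 209) and 0.535% of those that fell (1 of 187). It stood in 1 of 39 promoters of genes switched on and 0 of 53 of those switched off. A motif is a match of letters in this window only. The 3 promoters printed here show these features in a gene switched on, in a gastrokine and in a myosin gene that fell, with the motifs searched in capitals. Anxa10 (chr8:62123144-62123443, minus strand) has TGAGTCA with its first base 180 and 16 bases before the start and TATAAA 32 bases before it. Gkn2 (chr6:87373115-87373414, plus strand) has TATAAA 29 bases before the start. Myl9 (chr2:156775214-156775513, plus strand) has a CArG box 161 bases before it. They hold 1, 6 and 20 CpG.
Anxa10: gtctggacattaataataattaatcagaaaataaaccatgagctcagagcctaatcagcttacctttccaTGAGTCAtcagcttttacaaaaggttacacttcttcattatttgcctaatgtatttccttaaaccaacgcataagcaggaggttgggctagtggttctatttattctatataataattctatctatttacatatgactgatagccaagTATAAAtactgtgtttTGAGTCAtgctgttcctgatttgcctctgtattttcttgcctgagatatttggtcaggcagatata
Gkn2: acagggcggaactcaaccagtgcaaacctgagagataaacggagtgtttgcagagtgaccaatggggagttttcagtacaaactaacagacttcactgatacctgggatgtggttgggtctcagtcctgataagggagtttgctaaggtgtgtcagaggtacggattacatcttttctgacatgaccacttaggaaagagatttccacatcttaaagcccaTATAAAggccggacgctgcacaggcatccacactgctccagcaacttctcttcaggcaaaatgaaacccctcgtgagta
Myl9: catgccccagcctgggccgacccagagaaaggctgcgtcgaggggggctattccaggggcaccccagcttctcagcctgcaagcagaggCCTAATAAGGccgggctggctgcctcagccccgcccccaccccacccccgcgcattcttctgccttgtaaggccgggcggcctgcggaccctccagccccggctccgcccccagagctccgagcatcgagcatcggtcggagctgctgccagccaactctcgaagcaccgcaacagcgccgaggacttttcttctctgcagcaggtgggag

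The changes were spread unevenly over the chromosomes. On chromosome 12, 26.8% of 622 measured genes fell and 9.97% rose, whereas 28.6% of 724 genes on chromosome 15, 29.0% of 459 on chromosome 18 and 28.6% of 609 on chromosome 19 rose and 9.94%, 9.80% and 7.39% fell. On the other autosomes and X, 15.1% to 20.8% rose and 9.71% to 16.3% fell. The shift was general to well-expressed genes. Among genes with a mean level of at least 8 over the 6 arrays, a limit set after the values were seen, the median difference from the MEF mean on chromosome 12 was -0.52 at P3 and -0.50 at P20 (292 genes, 75% of them below MEF). On chromosome 15 it was 0.47 and 0.51 (326 genes, 74.5% above MEF), on chromosome 18 it was 0.41 and 0.45 (213 genes, 72.8% above) and on chromosome 19 it was 0.33 and 0.35 (298 genes, 64.4% above). On the 16 other chromosomes the medians lay between -0.09 and 0.10 at P3 and between -0.07 and 0.15 at P20. The same medians on single MEF arrays, each against the other 3, lay between -0.11 and 0.22 on all 20 chromosomes, and on the pHep array between -0.24 and 0.12. Against MEF replicates 2 to 4 alone the 4 medians were -0.47, 0.56, 0.46 and 0.40, and against MEF replicate 1 alone they were -0.63, 0.35, 0.44 and 0.25. Within chromosome 12 the shift was not uniform. The first 49 of its genes, which start up to position 28675207 (GRCm38.p6), had a median of 0.17, and the following groups of 48 or 49 genes had medians of -0.26, -0.80, -0.40, -0.61 and -0.79. With arrays centred on Gapdh the 4 medians over both passages were -0.14, 0.89, 0.83 and 0.71, against 0.30 to 0.53 on the other chromosomes. DNA copy number was not measured here.

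**Figure D5:**
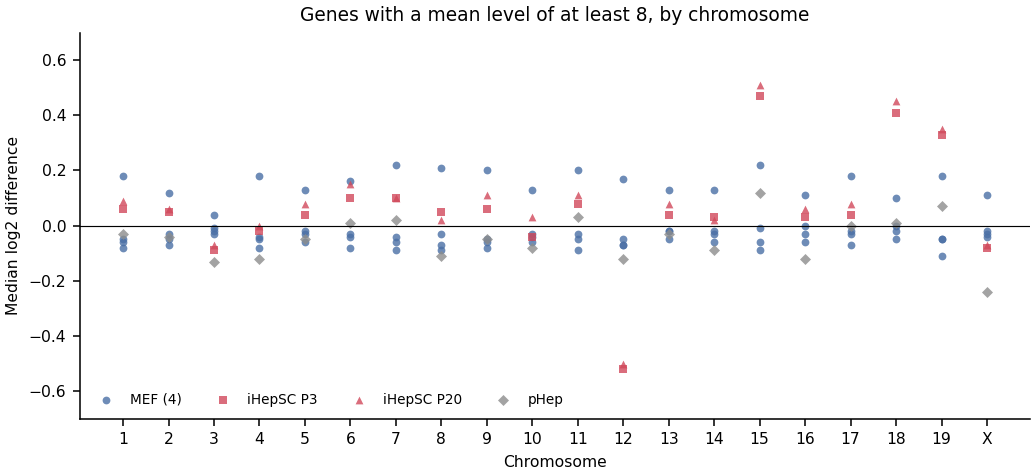
Median log2 difference of well-expressed genes from the MEF mean (each MEF array is set against the remaining 3), by chromosome and array. The iHepSC arrays at P3 and P20 stand apart on chromosomes 12 (-0.52 and -0.50), 15 (0.47 and 0.51), 18 (0.41 and 0.45) and 19 (0.33 and 0.35), and the pHep array does not.

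Transcripts of the Y chromosome and of Xist changed as well. Of 9 Y-linked genes measured 3 fell. Eif2s3y, a translation initiation factor subunit, was at 9.72, 10.09, 10.10 and 9.99 in MEF, at 4.23 and 4.12 in iHepSCs and at 10.37 on the pHep array. Uty, a histone demethylase paralog, was at 8.12, 7.83, 8.07 and 8.15 in MEF, at 3.49 and 3.4 in iHepSCs and at 9.67 on the pHep array. Kdm5d, a histone demethylase, was at 7.71, 7.08, 7.24 and 7.24 in MEF, at 3.85 and 3.96 in iHepSCs and at 9.46 on the pHep array. Xist, the RNA that coats the inactive X chromosome, was at 10.99, 10.14, 9.77 and 10.09 in MEF, at 7.07 and 6.99 in iHepSCs and at 6.23 on the pHep array, a fall by 3.22 (standard error 0.33, adjusted p = 0.000718, limma). Xist and these 3 Y-linked genes were thus higher in MEF, and in iHepSCs the 3 lay under 5 at both passages. The rest of the 9 Y-linked genes were not called, and the median difference of the 9 was -0.16. The other probe sets of Eif2s3y and Kdm5d did not pass the test, with differences of -0.31, 0.02 and -0.20, 1 of the 3 others of Uty passed it (-1.95), and those of Xist had differences of -3.66 and -1.89.

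Neighbouring genes and families gave further groups. On chromosome 5, a run of 10 neighbouring measured genes from Ugt2b34 to Sult1d1, which conjugate glucuronic acid or sulphate to lipophilic compounds, all rose, with a median of 3.65. Near-identical members of such a cluster can share probes. On chromosome 15, 6 neighbours from Krt76 to Krt18 rose, with a median of 2.91 (Krt76 lost its call without MEF replicate 3 or 4 or iHepSC replicate 1). On chromosome 16, 6 neighbours from Bace2 to Ripk4, which include Mx1 and Tmprss2, rose with a median of 4.65. Among families with at least 10 measured members, 9 of 18 Serpinb genes (intracellular protease inhibitors), 6 of 11 annexins and 8 of 16 Atg genes (autophagy) rose. Of 14 Chst genes (sulphotransferases of glycans) 7 fell, and of 15 Adamts proteases 6 fell.

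Of 3299 called genes with other probe sets, 53.4% had at least 1 other probe set called in the same direction, 71.2% had all of them on the same side and 1.27% had at least 1 called in the opposite direction. Among the genes described above that were called and have other probe sets, 51 were checked. Of these, 43 had at least 1 called the same way and 0 had 1 called the opposite way in the limma fit. The 8 without were Cdh5, Clca1, Eif2s3y, Gata4, Kdm5d, Ms4a4b, Parp14 and Tfcp2l1.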

How the data were processed

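Total RNA was hybridised to Affymetrix mouse expression arrays. The log2 values for 45101 probe sets were made by the authors with RMA, which the submitters' processing notes name without a version. Of these, 64 controls, 932 probe sets with several genes and 9160 without a gene in the annotation table were left out of the gene table. The remaining 34945 gave 18193 genes, of which 18032 matched RefSeq. Where several probe sets stood for 1 gene, that of highest average over all 7 arrays was used. Group means were fitted with limma 3.58.1 in R 4.3.3 (lmFit, eBayes; residual df 4, prior df 2.11, prior SD 0.162) and adjusted by Benjamini-Hochberg over all genes. The model was tested on simulated data. Python 3.11.15 (numpy 2.4.6, pandas 2.3.3, matplotlib 3.10.9) served for tables and plots.

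The comparison, the 52 gene lists and the tests were chosen with earlier results of these data known. No set test was made. Named genes are the 25 largest rises and 25 largest falls, up to 3 in each direction per list, Pou5f1, Hnf4a and the cell type markers. The switched genes, Y-linked genes, genes named with a difference that did not pass the test, members of the runs and families, and the chromosome medians were chosen after their values were seen. Of 280 named genes 196 had a promoter, and 1 (Fhl1) held an HNF4 or HNF1 match, so that the 3 promoters printed were instead chosen after the motif counts were seen. List members missing from the annotation were left out. The number of arrays, not a read depth, sets the precision. Alternatives in probe set choice, filter, scaling, fit and arrays used are given at the end.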

Additional observations from a re-analysis of the deposited data

Results flagged for a closer look

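The 4 MEF arrays were compared for 123 of the genes named above, and in 20 of them 1 array lay far from the other 3 by Dixon's criterion. Chance flags about 1 in 20 such groups. In 14 of these genes the array was MEF replicate 1. It was the highest MEF array for Fstl1 (13.91), Myl9 (14.06), Prrx1 (12.89), Cdh11 (13.68), Gusb (10.79), Cxcl12 (12.87), H2-D1 (10.03) and Tek (5.03), and the lowest for Hoxc8 (9.59), Slc38a4 (8.77), Armcx2 (12.59), Krt7 (5.77), Krt8 (6.92) and Ddx4 (7.06). Each of these 14 genes was called in the same direction without that array. The others were MEF replicate 2 for Krt76 (5.38), Lipf (4.38), Rhox6 (5.23) and Pou5f1 (5.26), MEF replicate 3 for Cdh5 (5.29) and MEF replicate 4 for Hoxc5 (6.36).

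A signal also appeared outside the gene table. Of 9160 probe sets without a gene in the annotation used, 664 were higher and 262 lower in iHepSCs than in MEF (limma on all probe sets, adjusted p under 0.05), with differences from -8.54 to 6.78.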

How the results depend on the processing

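The counts of genes called (3310 higher, 2446 lower) moved with the arrays used and with the replicate block. Over the fits that left out 1 array they ran from 1833 to 5638 higher and from 1299 to 4514 lower. Averaging MEF replicates 2 to 4 gave 1517 and 1184, MEF replicate 1 as the only MEF array gave 2013 higher, centring on Gapdh gave 1252 lower, and a fold of at least 2 gave 1965 and 1369. With the replicate block the counts were 845 and 682. The iHepSC numbers stand for passages. The deviations of MEF and iHepSC replicates of the same number correlated at -0.22 and -0.21. With only 2 iHepSC arrays the deviations of one mirror those of the other, so these values cannot tell whether arrays of the same number were paired. With limits of 6 and 9, 97 genes were switched on and 114 off, 33 and 38 of them shared with the sets in the report, and centring on Gapdh left 41 switched off. The other alternatives, the mean of all probe sets, no _x_at or _s_at probe sets, a level of at least 6, renewed quantile normalization, centring on the median, trend and robust fitting and the methods' t-test, kept each of these counts within 1.5 times.

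Of 123 of the genes named in the report, those called kept their direction under every alternative, and 17 crossed the threshold under at least 1: Hoxc5 (10 alternatives), Krt76 (7), Nanog (6), Hoxc6 and Kdr (5), Hoxc9 (4), Gbp2b and Parp9 (3), Fbxo15, Gbp2 and Hoxc4 (2), and Atp4a, Ccne1, Gata4, Gbp3, H2-D1 and Hnf4a (1). Of the 104 counts over the gene lists, 51 moved by over 1.5 times without MEF replicate 1, 36 with centring on Gapdh and 74 with the replicate block. Without a level limit the medians of chromosomes 12, 15, 18 and 19 were -0.14, 0.10, 0.10 and 0.13, with the same signs. Each passage was measured once, and levels near the lowest values of the arrays give only a limit to a fall.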
